A study of Mus musculus with 6 samples.

Results

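The solute carriers form a large family of membrane transporters in mammals, and 199 of their genes were followed here in haematopoietic stem cells (HSCs) of old and young mice. They are all genes of the deposited count table whose symbol starts with Slc and a digit and whose counts sum to 300 or more over the 6 libraries, out of 16312 genes in all. Of 294 such symbols, 89 fell short of 300 counts, and 6 were left out by name, namely Slc2a1, Slc2a3, Slc16a1, Slc16a3, Slc40a1 and Slc11a2. The sum over all libraries is the measured value that chose the members, and it does not use the contrast between ages. Genes with few counts, such as Slc25a43, Slc10a1 and Slc9a2, can still pass it through the age or library where they are high. Just inside that limit stood Slc1a4 (303 counts), Slc23a4 (306) and Slc6a17 (308), and just outside it stood Slc6a9 (278), Slc25a33 (261) and Slc5a2 (256). All 199 genes were protein-coding and passed the filter on low counts. Of these 199, 4 symbols share the name without being carriers: the scaffold genes Slc9a3r1 and Slc9a3r2, the adaptor gene Slc4a1ap and Slc7a6os.

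HSCs are the rare bone marrow cells from which all blood cells descend. They were sorted by flow cytometry from male mice 22 months old (old, 3 libraries) and 8 to 12 weeks old (young, 3 libraries). The labels name both groups as B6 controls under parabiont status and give the age as that at the procedure, without saying what procedure these controls had, and the series title gives the strain as C57BL/6N. No allele or treatment is named for either group. The series describes the libraries of an age as biological replicates, and the labels do not tie them to single animals, so p-values measure the spread between these samples. In bulk RNA, fewer cells of a type and less RNA per cell cannot be told apart.

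Solute carriers move ions, nutrients, cofactors and metabolites across membranes without splitting ATP, either down a gradient or coupled to the flow of a second solute. Some sit in the plasma membrane and set what a cell can take up, others in the membranes of mitochondria, lysosomes, Golgi and vesicles, where they link the compartments of metabolism. Blood stem cells divide seldom and are known for low metabolic activity, and the uptake of amino acids, nucleosides and metals is known to change when they enter division or differentiate.

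Levels are given as CPM, the count of a gene over the library total after TMM scaling, in parts per 1e+06, and differences as log2 fold change of old over young with its standard error (SE). A gene is called when its adjusted p is under 0.05 in edgeR's quasi-likelihood test over all 14288 genes tested. Total counts ran from 12494557 to 23583985 in old libraries and from 21386745 to 30931680 in young ones. The 12 listed HSC markers summed to 4272 to 4648 CPM in old and 4014 to 4706 CPM in young libraries, and 2 of them, Slamf1 (2.77-fold) and Procr (1.94-fold), were higher in old mice. Transcripts of other cells and states differed with age: 13 macrophage markers summed to 18.3 to 23.6 CPM in old and 49.8 to 68.4 CPM in young libraries, 7 of 11 tested were lower in old mice, and Adgre1, Cd5l, Fcna, C1qb and Timd4 had no count in any old library. Neutrophil markers summed to 5.57 to 8.43 CPM in old and 16.6 to 237 CPM in young libraries, mitosis genes to 1129 to 1722 CPM in old and 2813 to 3331 CPM in young ones, and immediate early genes to 3569 to 4134 CPM in old and 382 to 448 CPM in young ones. Of 11 tested erythroid markers 4 were lower in old mice (Car1, Rhag, Ermap and Klf1), and without Car2, which makes up most of the sum and was not called, the list summed to 47.96 to 57.2 CPM in old and 94.1 to 331 CPM in young libraries, highest in young replicate 1. Of 9 megakaryocyte markers Vwf alone was called, higher in old mice, and the others summed to 61.4 to 70.8 CPM in old and 60.3 to 78.8 CPM in young libraries. Of 6 tested endothelial markers 3 were higher in old mice (Cldn5, Clec14a and Kdr), and the list summed to 205 to 252 CPM in old and 128 to 199 CPM in young libraries. The part of these differences in the results on carriers was not tested.

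Few solute carrier genes differed between the ages beyond the spread between libraries. Called higher in old HSCs were 3 members, among them Slc30a4 and Slc14a1, Slc22a3 fell, and the other 195 members were not called. The 4 calls are 2.01% of the members, against 3.99% of all genes tested and 4.40% of other tested genes with 300 counts or more. The 3 higher genes compare with 2.45% of all genes called higher, and the 1 lower gene with 1.54% called lower. At an unadjusted p under 0.05 stood 26 members, 13.1% of them, against 16.5% of all genes tested and 17.7% of those other genes. DESeq2 called 11 members, 7 higher and 4 lower, against 1105 of 13728 genes in all. With limma-voom 5 members were called, against 564 of 14288 genes. The CPM of all 3 old libraries lay above all young ones for 22 members (11.1%, against 11.6% of all genes tested) and below them for 15 members (7.54%, against 10.8%). For the other genes with 300 counts or more these shares were 12.2% above and 11.1% below. The members' median log2 fold change was −0.04, against −0.02 for all genes tested, and the middle 50% of members lay between −0.26 and 0.27. For 116 of the 199 members, the 95% interval of the difference lay within 2-fold in both directions, and for the other 83 a 2-fold change was not excluded at this depth and spread.

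**Figure D1:**
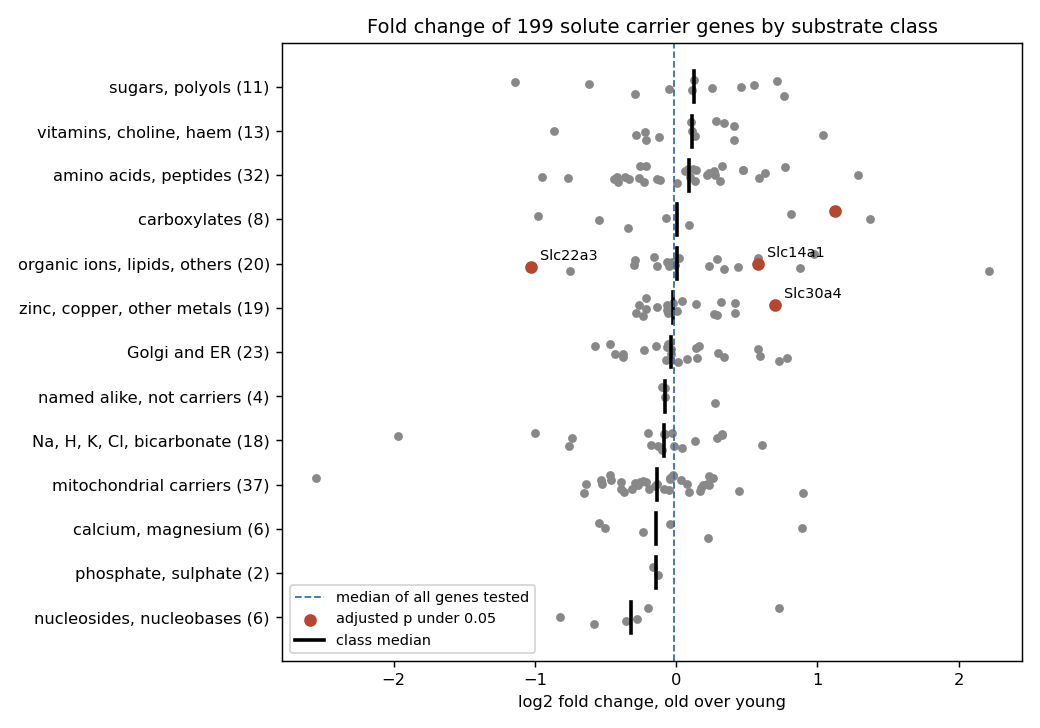
Log2 fold change of old over young (x axis) for each of the 199 members, grouped by substrate class (y axis, number of members in brackets). Red points are the 4 called genes, black bars the class medians and the dashed line the median of all genes tested, −0.02. The class medians lie between −0.32 and 0.12.

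Slc22a3 encodes the organic cation transporter OCT3, which carries monoamines and other organic cations across the plasma membrane. The gene (ENSMUSG00000023828) spans chromosome 17 from 12418960 to 12507704 on the minus strand of GRCm38. It stood at 64.7, 72.6 and 55.2 CPM in the old libraries, against 148, 106 and 139 CPM in the young ones. The groups did not overlap, and the highest old library lay well below the lowest young one. The mean was 64.2 ± 8.69 CPM in old and 131 ± 22.3 CPM in young mice (SD, n = 3 each), a log2 fold change of −1.03 ± 0.16 SE (edgeR, adjusted p = 0.00403). The call held in all 13 alternative fits, with log2 values from −1.16 to −0.92. Plg, a gene that overlaps it on the opposite strand, had at most 11 counts in a library, against at least 865 for Slc22a3.

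Slc30a4 encodes the zinc transporter ZnT4, which moves zinc out of the cytosol into vesicles. It lies on chromosome 2 from 122681233 to 122702663 (ENSMUSG00000005802). Its level was 78.8, 87.4 and 76.6 CPM in old libraries, against 51.4, 54.00 and 43.9 CPM in young ones. All old libraries thus stood above all young ones, and the spread within each age was small beside the gap. The log2 fold change was 0.70 ± 0.15 SE, or 1.63-fold (edgeR, adjusted p = 0.0221). Without old replicate 1, 2 or 3 or young replicate 3 the call was lost (adjusted p = 0.0835, 0.102, 0.0733 and 0.0680), while the log2 value stayed between 0.62 and 0.77 in all fits.

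The promoters of these genes are shown because they are the 2 called members of 4 for which RefSeq promoter windows (GRCm38.p6, 250 bases before to 50 after the start) were at hand. Each is written 5′ to 3′ on the minus strand, with matches of searched motifs in capitals. The motifs were AP-1 (TGANTCA), the amino acid response element (TGATGNAA), the E-box (CACGTG) and a loose form of the metal response element core (TGCNCNC), on both strands. The loose form takes any base at N, so a match need not hold the full core. The Slc22a3 window is chr17:12507655-12507954 and the Slc30a4 window chr2:122702614-122702913.
Slc22a3: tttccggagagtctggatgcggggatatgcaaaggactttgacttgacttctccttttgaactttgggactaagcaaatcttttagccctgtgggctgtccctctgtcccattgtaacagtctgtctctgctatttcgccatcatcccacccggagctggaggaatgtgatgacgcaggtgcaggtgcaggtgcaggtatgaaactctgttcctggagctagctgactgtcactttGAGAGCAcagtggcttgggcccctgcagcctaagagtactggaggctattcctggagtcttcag
Slc30a4: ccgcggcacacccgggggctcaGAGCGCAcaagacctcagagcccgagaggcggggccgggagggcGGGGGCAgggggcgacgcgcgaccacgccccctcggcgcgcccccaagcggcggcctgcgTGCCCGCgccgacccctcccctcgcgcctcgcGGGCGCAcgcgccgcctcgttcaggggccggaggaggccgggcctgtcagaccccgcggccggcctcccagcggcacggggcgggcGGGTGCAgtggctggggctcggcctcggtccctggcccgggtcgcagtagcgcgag
All capitals in both windows are matches of this loose form, with 1 in the Slc22a3 window and 5 in the Slc30a4 window. None overlaps another motif. This short, loose pattern is frequent: 51.0% of all 32851 promoter windows hold it, against 7.81% for AP-1, 3.97% for the amino acid response element and 7.15% for the E-box. A match is a run of letters and not a measured binding site.

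Slc14a1 encodes the urea transporter UT-B, known from red cells and the vessels of the kidney. It lies on chromosome 18 from 78100091 to 78142119 (ENSMUSG00000059336). It stood at 129.6, 155 and 175 CPM in old libraries, against 102, 106 and 99.6 CPM in young ones. The young libraries were close together, the old ones were spread, and the groups did not overlap. The log2 fold change was 0.58 ± 0.13 SE, or 1.49-fold (edgeR, adjusted p = 0.0336). The call was lost without old replicate 2 or 3 or any 1 young library (adjusted p from 0.0691 to 0.192).

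**Figure D2:**
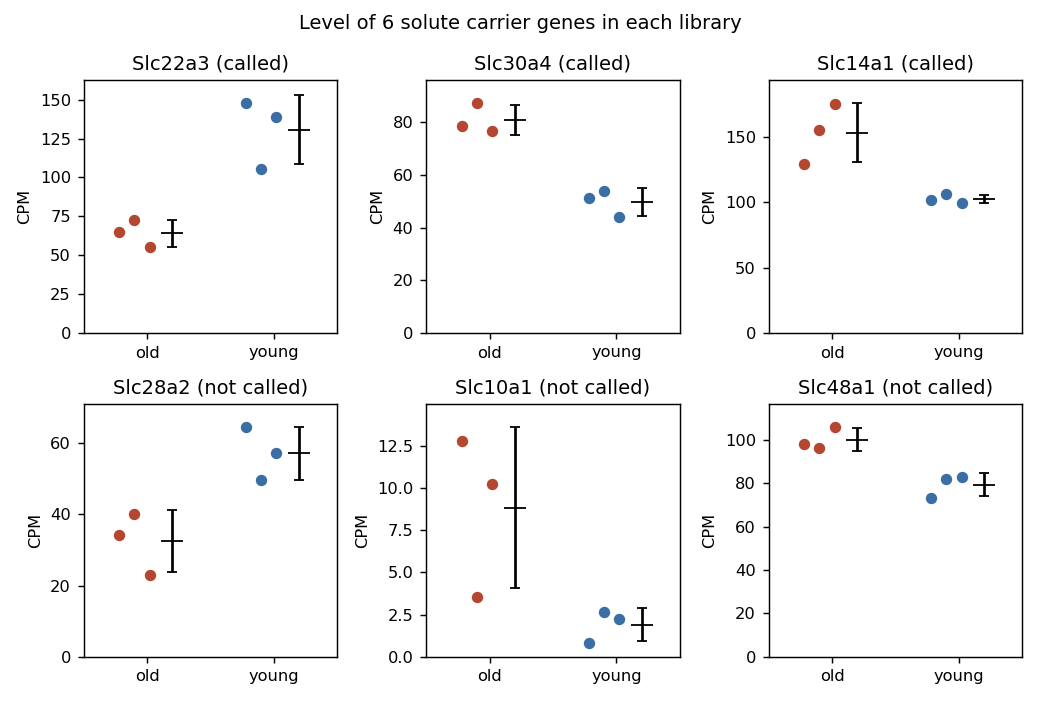
CPM (y axis, from 0) of 6 solute carrier genes in the 3 old and 3 young libraries. Points are libraries, and bars give the mean ± SD. Slc22a3 is lower and Slc30a4 and Slc14a1 are higher in old libraries without overlap, and Slc28a2, Slc10a1 and Slc48a1, which were not called, also do not overlap.

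**Figure D3:**
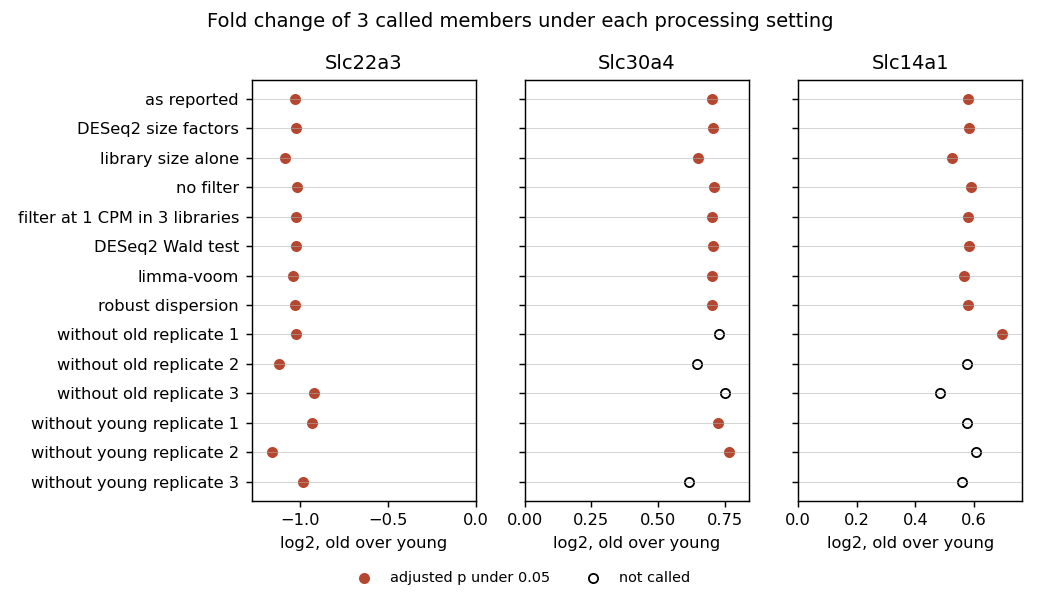
Log2 fold change of old over young (x axis) of 3 called genes as reported and in 13 alternative fits (rows). Filled points have an adjusted p under 0.05 and open points do not. Slc22a3 is filled in every row, Slc30a4 is open in 4 and Slc14a1 in 5.

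Among the carriers of organic ions, lipids and other solutes, 20 members, 1 rose and 1 fell (10% called, against 3.99% of all genes tested). The old libraries stood above all young ones for 7 (35%, against 11.6% of all genes) and below for 1 (5%, against 10.8%). At an unadjusted p under 0.05 stood 7 (35%, against 16.5% of all genes tested), and the median log2 fold change of the class was 0.00. Slc10a1, the bile acid transporter NTCP known from liver, had 12.8, 3.52 and 10.2 CPM in old libraries, against 0.806, 2.67 and 2.23 CPM in young ones. Its groups did not overlap, but old replicate 2 stood near the young libraries. The log2 value of 2.21 ± 0.58 SE did not pass (edgeR, adjusted p = 0.0564), and it passed without old replicate 2 (2.59, adjusted p = 0.0345), with the DESeq2 Wald test (adjusted p = 0.00218) and, barely, with a filter at 1 CPM in 3 libraries (adjusted p = 0.049996). Slc18a2, the vesicular monoamine transporter VMAT2, had the highest CPM of the class, with 398, 371 and 358 CPM in old libraries, against 294, 346 and 281 CPM in young ones (log2 0.29 ± 0.11 SE, adjusted p = 0.200). The other carriers of the Slc22 family did not share the difference of Slc22a3 as a group: their log2 values ran from −0.75 for Slc22a18 to 0.88 for Slc22a23, and none was called.

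Of the 8 carboxylate carriers 1 was called (12.5%, against 3.99% of all genes tested). At an unadjusted p under 0.05 stood 4 (50%, against 16.5%), and the class median was 0.01. Members of the Slc16 family stood on both sides. Slc16a12, a creatine transporter, had 27.3, 26.3 and 28.5 CPM in old libraries, against 12.99, 18.98 and 14.7 CPM in young ones (log2 0.81 ± 0.23 SE, adjusted p = 0.0714). Slc16a7, the lactate and pyruvate carrier MCT2, had 38.8, 35.2 and 43.1 CPM in old libraries, against 52.2, 62.1 and 56.9 CPM in young ones (log2 −0.55 ± 0.16 SE, adjusted p = 0.0971). Neither gene overlapped between the ages, neither was called by edgeR, and DESeq2 called them (adjusted p = 0.0106 for Slc16a12 and 0.0256 for Slc16a7). These genes were named because of their values. Of the left-out lactate carriers, Slc16a1 had a log2 value of −0.14 (adjusted p = 0.810), and Slc16a3 had only 158 counts in all.

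**Figure D4:**
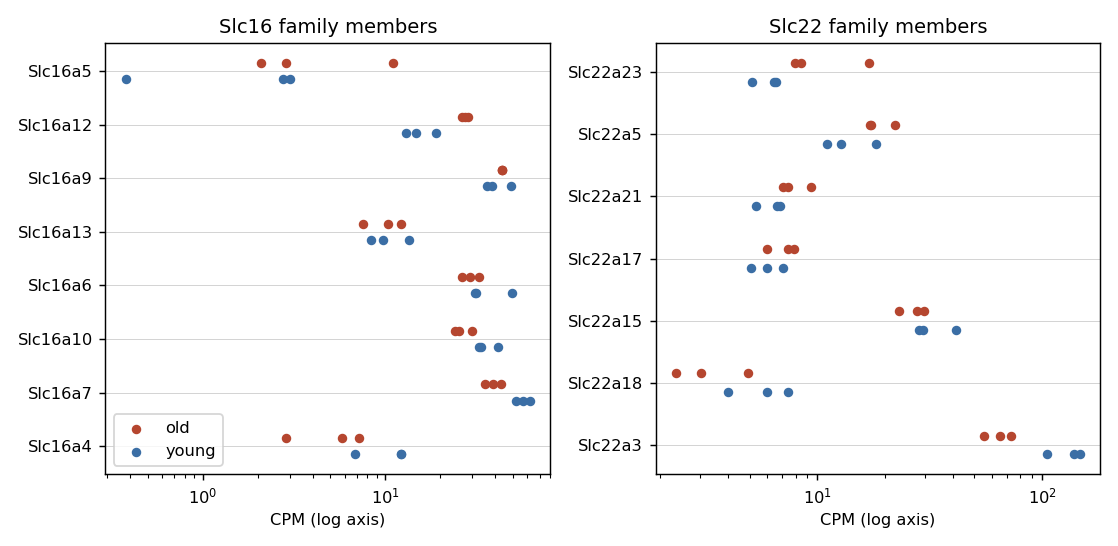
CPM (x axis, log scale) of 8 members of the Slc16 family (left) and 7 of the Slc22 family (right), with old libraries in red above young libraries in blue for each gene. Genes are ordered by log2 fold change, from −0.98 for Slc16a4 to 1.37 for Slc16a5 and from −1.03 for Slc22a3 to 0.88 for Slc22a23.

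Carriers of zinc, copper and other transition metals supply metalloenzymes, with the Slc30 family moving zinc out of the cytosol and the Slc39 family moving it in. Of 19 members 1 rose, Slc30a4, and none fell (5.26% called, against 3.99% of all genes tested). The class median was −0.02. The other 18 log2 values lay between −0.29 for Slc39a7 and 0.42 for Slc30a6. None of these 18 passed an unadjusted p of 0.05, as 16.5% of all genes tested did. The intervals of 15 of the 19 members lay within 2-fold. Slc39a10, a zinc importer and the highest in CPM of the class, had 119, 135 and 117 CPM in old libraries, against 127, 135 and 108 CPM in young ones. Slc31a1, the copper importer CTR1, had 58.00, 63.8 and 70.4 CPM in old libraries, against 59.5, 65.5 and 61.7 CPM in young ones. Both genes overlapped fully between the ages. Among the left-out metal carriers, the iron importer gene Slc11a2 fell (log2 −0.92 ± 0.21 SE, adjusted p = 0.0346), and the iron exporter gene Slc40a1, at 2.07, 1.17 and 4.81 CPM in old libraries and 20.1, 4.86 and 5.50 CPM in young ones, was not called (adjusted p = 0.147).

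Beside the genes a fixed rule names, Slc22a18, Slc22a23, Slc16a4, Slc16a5, Slc30a6, Slc39a7, Slc39a10, Slc31a1, Slc3a2, Slc25a37, Slc29a1, Slc29a3, Slc35a3 and Slc23a2 were added as examples once their values had been seen. In the remaining 9 substrate classes, with 148 members, edgeR called no gene. At an unadjusted p under 0.05 stood 14 of these members, where 16.5% of all genes tested stood. DESeq2 called 3 (Slc6a15, Slc25a43 and Slc28a2), against 1105 of 13728 genes in all, and limma-voom called 1 (Slc28a2), against 564 of 14288.

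Amino acid and peptide carriers, 32 members, feed protein synthesis and nutrient sensing. Their median log2 fold change was 0.09, which was −0.04 without old replicate 3. An unadjusted p under 0.05 was found for 5 (15.6%, against 16.5% of all genes tested). The old libraries stood above all young ones for 3 (9.38%, against 11.6%) and below for 4 (12.5%, against 10.8%). Slc7a5, the large neutral amino acid transporter LAT1, had 15.2, 13.4 and 14.7 CPM in old libraries, against 18.02, 31.8 and 23.97 CPM in young ones. The groups did not overlap, although young replicate 1 stood near the old libraries, and the log2 value of −0.76 ± 0.25 SE did not pass (adjusted p = 0.139). A predicted gene on the opposite strand, Gm20388, overlaps it and had 599 to 1258 counts, and the strand setting of the counting is not given in the sources used here. Slc3a2, the heavy chain with which LAT1 pairs, had 64.4, 54.4 and 67.2 CPM in old libraries, against 60.6, 55.1 and 56.1 CPM in young ones. Slc6a15, a neutral amino acid transporter picked after its values were seen, had 48.9, 57.3 and 55.2 CPM in old libraries, against 35.3, 33.3 and 35.95 CPM in young ones. Its groups were tight and apart, and it missed the threshold (log2 0.63 ± 0.16 SE, adjusted p = 0.0552).

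The highest CPM of all members belonged to Slc38a6 of the Slc38 family, whose other members carry glutamine and alanine. It had 915, 675 and 745 CPM in old libraries, against 590.0, 603 and 693 CPM in young ones, and the groups overlapped (log2 0.31 ± 0.12 SE, adjusted p = 0.226). Slc38a2, the inducible system A carrier SNAT2, had 362, 374 and 347 CPM in old libraries, against 321, 334 and 246 CPM in young ones (adjusted p = 0.317). Its groups did not overlap. Slc38a1 averaged 246 ± 21.7 CPM in old and 232 ± 16.2 CPM in young mice, and the taurine carrier gene Slc6a6 averaged 146 ± 16.7 CPM in old and 160.3 ± 12.8 CPM in young mice (SD, n = 3 each). Their 95% intervals, −0.16 to 0.33 and −0.41 to 0.14 on the log2 scale, leave no room for a 2-fold change.

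Mitochondrial carriers of the Slc25 family pass nucleotides, phosphate, amino acids and cofactors through the inner membrane. Of 37 members none was called and 2 had an unadjusted p under 0.05 (5.41%, against 16.5% of all genes tested). A negative log2 value was found for 25 and a positive one for 12, and the class median was −0.13. The intervals of 24 members lay within 2-fold. Slc25a5, the ADP/ATP carrier ANT2, had 304, 352 and 286 CPM in old libraries, against 305, 269 and 263 CPM in young ones. Slc25a4, the related carrier ANT1, averaged 131 ± 21.8 CPM in old and 109 ± 5.54 CPM in young mice (SD, n = 3 each). These paralogs are close copies, so the split of reads between them is uncertain. The phosphate carrier gene Slc25a3 averaged 220.0 ± 18.3 CPM in old and 227 ± 30.5 CPM in young mice, and Slc25a51, the NAD carrier, averaged 149 ± 16.4 CPM in old and 154 ± 19.8 CPM in young mice. Slc25a36, a pyrimidine nucleotide carrier, averaged 298 ± 12.2 CPM in old and 256 ± 53.9 CPM in young mice. Slc25a46, a family member of the outer membrane, averaged 129 ± 13.7 CPM in old and 126 ± 33.2 CPM in young mice. All 4 of these overlapped between the ages.

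Slc25a38, the glycine carrier that supplies haem synthesis, had 6.79, 4.03 and 5.31 CPM in old libraries, against 3.13, 3.22 and 2.35 CPM in young ones. The groups did not overlap and the value did not pass (log2 0.90 ± 0.43 SE, adjusted p = 0.339). Slc25a37, the iron carrier mitoferrin-1, had 96.05, 114 and 91.3 CPM in old libraries, against 84.9, 95.6 and 84.1 CPM in young ones. Both are known from red cell precursors. Of 11 tested erythroid markers 4 were lower in old mice, and their part in these values was not tested. The lowest log2 value of all members belonged to Slc25a43, at 1.05, 1.93 and 0.137 CPM in old libraries and 1.28, 12.9 and 3.49 CPM in young ones. Young replicate 2 stood far above the other libraries, and the value of −2.55 ± 0.93 SE was not called by edgeR (adjusted p = 0.179). It was picked after its values were seen, and DESeq2 called it (adjusted p = 0.0366).

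Nucleoside and nucleobase carriers salvage purines and pyrimidines for DNA and RNA. Of 6 members 5 had a negative log2 value, and the class median, −0.32, was the lowest of all classes. However, none was called, and 1 had an unadjusted p under 0.05 (16.7%, against 16.5% of all genes tested). Slc28a2, the sodium-coupled purine nucleoside transporter CNT2, had 34.2, 40.2 and 22.99 CPM in old libraries, against 64.6, 49.6 and 57.2 CPM in young ones. The groups did not overlap (log2 −0.82 ± 0.22 SE, edgeR adjusted p = 0.0606). Its call depended on the tool: DESeq2 gave an adjusted p of 0.00537, limma-voom 0.0404 and edgeR with library size alone 0.0388. Slc29a3, a nucleoside carrier of lysosomes, had 58.8, 75.8 and 47.8 CPM in old libraries, against 86.9, 78.3 and 67.4 CPM in young ones, with overlap (adjusted p = 0.384). Slc29a1, the plasma membrane carrier ENT1, had 4.94, 10.7 and 9.89 CPM in old libraries, against 9.72, 15.3 and 12.99 CPM in young ones (adjusted p = 0.471). Mitosis genes were also lower in old mice, and their part in these values was not tested.

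Sugar and polyol carriers, 11 members, had a class median of 0.12, which was −0.02 without young replicate 3. Of these, 1 had an unadjusted p under 0.05 (9.09%, against 16.5% of all genes tested). Slc37a3 had 5.65, 5.70 and 5.54 CPM in old libraries, against 0.284, 5.22 and 4.40 CPM in young ones, with young replicate 1 far below the other 5 libraries (log2 0.76 ± 0.72 SE, adjusted p = 0.677). The left-out glucose transporter genes had log2 values of 0.35 ± 0.12 SE for Slc2a3 (adjusted p = 0.142) and −0.07 ± 0.18 SE for Slc2a1 (adjusted p = 0.897).

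Carriers of the Golgi and endoplasmic reticulum bring nucleotide sugars and other donors to the enzymes that build glycans. None of 23 was called, 2 had an unadjusted p under 0.05 (8.70%, against 16.5% of all genes tested), and the median was −0.03. Slc35a2, the UDP-galactose transporter, had 9.87, 9.81 and 11.3 CPM in old libraries, against 9.01, 3.06 and 6.66 CPM in young ones (log2 0.73 ± 0.40 SE, adjusted p = 0.413). Slc35a3, which carries UDP-N-acetylglucosamine and had the highest CPM of the class, had 117, 148 and 109 CPM in old libraries, against 151, 123 and 109 CPM in young ones. Its values overlapped throughout.

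Carriers of sodium, protons, potassium, chloride and bicarbonate set cell volume and pH. None of 18 was called, 2 had an unadjusted p under 0.05 (11.1%, against 16.5% of all genes tested), and the median was −0.08. Slc26a1 is a sulphate and oxalate exchanger that falls in this class by its family number and not by its substrates. It had 3.46, 3.19 and 3.02 CPM in old libraries, against 3.60, 8.59 and 7.15 CPM in young ones (log2 −1.001 ± 0.44 SE, adjusted p = 0.285). It lies opposite Idua, which had 400 to 1309 counts. Slc9a2, a sodium proton exchanger picked after its values were seen, had 1.27, 0.252 and 2.06 CPM in old libraries, against 12.9, 0.941 and 0.581 CPM in young ones. Its log2 value of −1.97 turned to 0.68 without young replicate 1. That library had the highest erythroid and neutrophil marker sums, and their part in the value of Slc9a2 was not tested.

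Of 13 carriers of vitamins, choline and haem none was called and the median was 0.11. An unadjusted p under 0.05 was found for 1 (7.69%, against 16.5% of all genes tested). Slc48a1, which carries haem out of lysosomes, had 97.99, 96.5 and 106 CPM in old libraries, against 73.2, 82.04 and 82.8 CPM in young ones. The groups did not overlap, and the small difference did not pass (log2 0.34 ± 0.13 SE, adjusted p = 0.204). Hdac7 on the opposite strand overlaps it, with 419 to 1401 counts. Slc23a2, the vitamin C transporter SVCT2 and the highest in CPM of the class, had 113, 128 and 122 CPM in old libraries, against 126, 108 and 104 CPM in young ones. Of 6 calcium and magnesium carriers and 2 phosphate carriers none was called and none had an unadjusted p under 0.05, with medians of −0.14 and −0.15. The calcium and magnesium median was 0.06 without young replicate 2.

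Set against each other per length of exons, the mitochondrial carrier Slc25a5 stood highest, with 191 CPM per kilobase in old and 169 in young mice. Slc38a6 followed with 100.005 CPM per kilobase in old and 80.8 in young mice, then Slc18a2 with 71.9 in old and 58.8 in young mice, Slc25a4 with 55.5 in old and 46.2 in young mice, and Slc25a3 with 39.6 in old and 40.9 in young mice. Slc38a2, Slc48a1 and Slc14a1 completed the first 8. Within that order Slc25a5 and Slc38a6 were apart in every library, whereas the libraries of Slc25a3 and Slc38a2 overlapped. Over all members the mean level ran from 2.07 to 704 CPM with a median of 19.3 CPM, and 16 genes reached 100 CPM while 71 stayed under 10 CPM. The summed level of the 199 genes was 8489, 8784 and 8429 CPM in old libraries, against 8444, 8344 and 7832 CPM in young ones. This was 0.829% to 0.853% of all counts in old libraries and 0.828% to 0.845% in young ones, ranges that overlap.

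**Figure D5:**
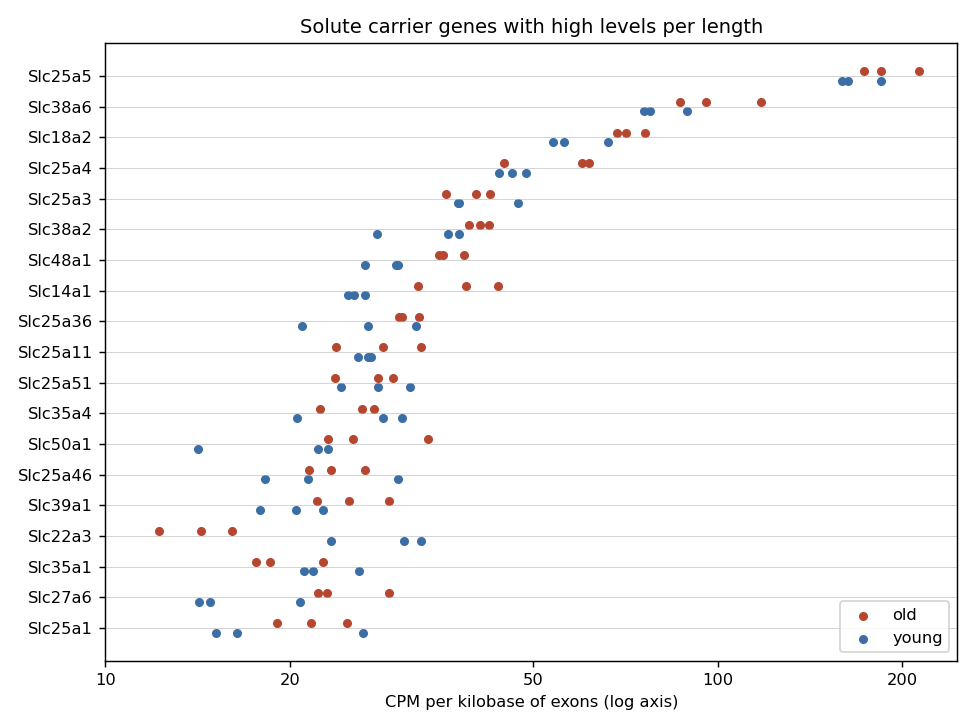
CPM per kilobase of exons (x axis, log scale) in each old (red) and young (blue) library for 19 members with high levels per length (y axis, highest at the top). Slc25a5 leads with 191 in old and 169 in young mice, and Slc22a3 is the gene whose old libraries lie furthest left of its young ones.

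Among the 89 carrier genes with fewer than 300 counts, edgeR and limma-voom tested 44, and DESeq2 gave an adjusted p to 32. None was called by edgeR, DESeq2 or limma-voom, with 1, 1 and 3, in that order, at an unadjusted p under 0.05. Other transporters were taken from lists, and their calls stand beside 2.45% of all genes tested called higher and 1.54% called lower. Of 47 tested carriers with other symbols none rose and 1 fell, the ammonium transporter gene Rhag of red cell precursors, with 1.52, 1.17 and 1.42 CPM in old libraries, against 19.7, 3.53 and 4.80 CPM in young ones. Its highest value was in young replicate 1 (adjusted p = 0.0357). Of 32 tested ABC transporters, which use ATP, 3 rose and none fell (9.38% called): the retinoid flippase gene Abca4 (3.78-fold, adjusted p = 0.00609), the drug efflux pump gene Abcb1b (1.59-fold, adjusted p = 0.0313) and the cholesterol exporter gene Abca1 (1.47-fold, adjusted p = 0.0489). Of 30 tested P-type ATPases 14 had an unadjusted p under 0.05 (46.7%, against 16.5% of all genes tested), 2 rose, the phospholipid flippase genes Atp10a (1.61-fold) and Atp8a1 (1.45-fold), and 2 fell, Atp13a3 (log2 −0.67) and the sodium pump subunit gene Atp1b2 (0.169, 0.0839 and 0.0916 CPM in old libraries, against 14.6, 7.69 and 1.83 CPM in young ones). Of 14 tested regulators of carrier genes 2 rose, the amino acid response factor Atf4 (1.87-fold, adjusted p = 0.00270) and Txnip (1.58-fold, adjusted p = 0.0126), which restrains glucose uptake. None of these comparisons was tested against the carriers.

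The authors' deposited table, whose log2 values are young over old, gives an adjusted p under 0.05 to 8 of the 199 members (4.02%), against 6.17% of all genes with an adjusted p there. Of these 8 genes of the authors' deposited table, 7 are higher in old mice and 1, Slc22a3, is lower (adjusted p = 2.93e-05). All 4 members called by edgeR are among the 8. The others in the authors' deposited table are Slc6a15, Slc10a1, Slc16a12 and Slc15a4. For Slc15a4, a peptide and histidine carrier of lysosomes, the authors' deposited table gives a log2 value of −0.97 (adjusted p = 0.0216). The deposited counts gave 13.7, 12.6 and 10.2 CPM in old libraries, against 13.9, 10.7 and 8.41 CPM in young ones, and a log2 fold change of 0.14 ± 0.30 SE (edgeR, adjusted p = 0.873). Both values are higher in old mice, and they differ in size. Outside the members, edgeR called Slc11a2, Abcb1b, Atp10a and Atp8a1, and the authors' deposited table does not (adjusted p there 0.0915, 0.480, 0.227 and 0.176). It does call Rhag, Abca4, Abca1, Atp13a3, Atp1b2, Atf4 and Txnip.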

How the data were processed

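Sorted HSCs of old and young mice gave 3 low-input RNA libraries per age, sequenced from a single end over 50 bases (source: labels). The authors deposited estimated counts per gene, as whole numbers; GRCm38, FastQC, MultiQC, Salmon and DESeq2 stand in the submitters' processing notes, with no version or role, and the strand setting is not given in the sources used here. Their second table holds, per the file headers, the authors' base mean (a normalised signal), log2 fold change with its standard error, a test score, and the authors' p-value and adjusted p-value.

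Counts were matched to symbols and exonic lengths by Ensembl identifier (GENCODE M21, GRCm38), which named 16301 of 16312 genes. Genes were filtered with edgeR's default (minimum count 10, minimum total 15), scaled with TMM and tested, two-sided, with the quasi-likelihood F test (R 4.3.3, edgeR 4.0.16, limma 3.58.1, DESeq2 1.42.0), adjusted by Benjamini-Hochberg over 14288 genes. SE is the size of the log2 fold change over the root of F, and intervals are 95%. Replicates were numbered in sample order, so equal numbers mean no pairing. For young replicate 2, title and description disagree on the library number; the title matched its column. The fit was tested on simulated counts. The members, the 12 substrate classes (by family number) and the other lists were chosen with earlier results of these data known. Named are all called members, in each class of 3 or more the member with the largest change among those without overlap of the ages and with a mean of 5 CPM or more in the age where it is higher, the 12 highest in CPM and 8 highest per kilobase, 3 genes on either side of the 300-count limit, the 6 left out and called genes of the other lists; further genes are given as examples of a class, and those picked for their values are said to be. Some genes that the rule names are not reported here. Promoter windows matched 151 of the 199 members by symbol, too few for a motif count over the members.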

Additional observations from a re-analysis of the deposited data

How the results depend on the processing

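Slc22a3 kept its call and direction in all 13 alternative fits. The members called higher in old mice, 3 as reported, numbered 7 with the DESeq2 Wald test. With 1 library left out they numbered between 0 and 1, the 0 being without young replicate 3. That 1 gene was Slc14a1 without old replicate 1 and Slc30a4 without young replicate 1 or 2. It was Slc10a1 without old replicate 2 and Slc15a2 without old replicate 3, neither of them called as reported. The members called lower, 1 as reported, numbered 4 with the DESeq2 Wald test, 2 with limma-voom and 2 with library size alone, and 1 with each library left out. The median log2 fold change of the members, −0.04, was −0.0941 with library size alone, where the median of all genes was −0.0716, and −0.0166 with limma-voom, and lay between −0.0519 and −0.00692 with 1 library left out. A limit of 100 or 1000 counts for members in place of 300 left 3 higher and 1 lower call. Over these settings the class medians stayed negative for mitochondrial and nucleoside carriers and positive for carriers of vitamins, choline and haem. The medians of the other carrier classes with 3 or more members changed sign in at least 1 setting. The called members and the class examples chosen by the stated rule kept their direction in all 13 alternative fits. Of genes picked for their values, Slc9a2 (−1.97) was 0.68 without young replicate 1 and Slc15a2 (1.29) was −1.04 with limma-voom. Slc16a12, Slc16a7, Slc6a15 and Slc25a43 kept their direction, and Slc25a43 (−2.55) was −1.23 without young replicate 2. Slc15a4 (0.14), named from the authors' deposited table, was −0.02 without young replicate 3. The genes listed above as added examples of a class were not followed across alternatives. The number of genes called over the whole table was 570, 1105 with the DESeq2 Wald test and from 245 to 473 with 1 library left out, where fewer samples enter the fit. No paired analysis was possible because the labels give no replicate numbers that the ages share. With 3 libraries per age the median SE of the members was 0.27 on the log2 scale, which limits what can be seen at low levels.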

Other observations

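Slc15a2, the peptide transporter PEPT2, was picked after its values were seen. It had 64.1, 108 and 0.366 CPM in old replicates 1, 2 and 3, against 30.2, 20.5 and 19.5 CPM in young replicates 1, 2 and 3. Old replicate 3 held 8 counts of the gene, while the other 5 libraries held between 522 and 1520. The log2 fold change of old over young was 1.29 ± 0.95 SE and was not called (edgeR, adjusted p = 0.573). Without old replicate 3 it was 1.89 ± 0.27 SE and called (adjusted p = 0.00565), and with limma-voom on all libraries it was −1.04 (adjusted p = 0.777). The difference between old replicate 3 and the other old libraries was not tested.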
